A study of Saccharomyces cerevisiae with 20 samples.

Results

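Transcript levels of aerobic and anaerobic Saccharomyces cerevisiae cultures were compared in early stationary phase (SP), the non-growing state that a batch culture enters when its carbon source runs out. The comparison uses 4 of the 20 arrays of the study, 2 of aerobic early SP and 2 of anaerobic early SP, taken by their sample titles. The study followed batch cultures of 1 strain with and without oxygen into SP, at 6 aerobic and 4 anaerobic stages, with duplicate cultures on Affymetrix YG-S98 arrays. Aerobic cultures were sparged with air and fermented glucose first. They then respired the ethanol and organic acids they had formed, in the post-diauxic phase, and entered SP when those were gone. Anaerobic cultures were sparged with nitrogen and entered SP as soon as glucose was used up, with no post-diauxic phase. Both regimes used the prototrophic haploid CEN.PK113-7D (MATa MAL2-8C SUC2) in a synthetic medium whose carbon source was glucose (20 g/L), at 30 °C and pH 5.0. The anaerobic medium alone held Tween 80 (420 mg/L), a source of oleic acid, and ergosterol (10 mg/L), both given in ethanol, because yeast cannot make sterols and unsaturated fatty acids without oxygen. Oxygen, these supplements and the carbon source last used therefore cannot be told apart in any value below.

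Yeast senses oxygen largely through heme and sterols, whose synthesis needs oxygen. Heme activates Hap1, which turns on respiratory and sterol genes and the repressor Rox1, and Rox1 keeps hypoxic genes silent, while falling sterol levels activate Upc2, which turns on sterol uptake and the DAN, TIR and PAU cell-wall genes. Growth on ethanol or acetate relies on another set of regulators, among them Cat8, Adr1 and Sip4, which switch on gluconeogenesis, the glyoxylate cycle and peroxisomal β-oxidation once glucose is gone. Starving cells of either regime also express genes of the general stress response driven by Msn2 and Msn4.

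Values are the deposited linear signals, scaled to a common average on each array, and signals below 12 were set to 12 before differences were taken. A log2 difference is aerobic minus anaerobic early SP, with its standard error (SE) from limma and n = 2 cultures per group, and a probe set was called when the limma adjusted p was below 0.05 and the fold at least 2. The early SP duplicates had a correlation of 0.9798 in aerobic cultures and 0.9905 in anaerobic cultures, and 203 and 70 probe sets were at least 2-fold apart between them. Median signals were 66.4 and 62.1 on the aerobic arrays, against 51.4 and 49.7 on the anaerobic arrays. Mating-type genes went only partly with the MATa label. MFA2, which encodes the a-factor pheromone, gave 2614.7 and 3905.9 in aerobic and 2104.5 and 2799.8 in anaerobic early SP. STE3, the a-factor receptor of alpha cells, gave 22.6 and 24.4 in aerobic and 21.9 and 22.9 in anaerobic early SP. Other alpha-cell genes had more signal than STE3. SAG1 gave 88.3 and 95.4 in aerobic and 57.5 and 54.9 in anaerobic early SP. MF(ALPHA)1, a pheromone gene of alpha cells, gave 17.1 and 52.7 in aerobic, against 216.2 and 238.8 in anaerobic early SP.

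Aerobic and anaerobic early SP differed at 1525 of 6067 probe sets (25.1%). Of these, 978 (16.1%) were called higher and 547 (9.02%) lower in aerobic early SP, and counted once per gene these were 903 and 405 of 5266 genes (17.1% and 7.69%). The median absolute log2 difference of the called probe sets was 1.44 for those higher and 1.52 for those lower in aerobic cultures. Differences of at least 8-fold were found for 84 higher and 71 lower probe sets, and differences of at least 32-fold for 29 higher and 5 lower ones. The 2 groups did not overlap at any called probe set, nor at 74.9% of all those tested. The median log2 difference over all probe sets was 0.21, so a list of genes is set beside that value, and with quantile normalization, which brings this median to 0.01, the split turned to 658 higher and 729 lower, or 47.4% of the calls higher against 64.1% as deposited. Scaling to housekeeping genes gave 830 higher and 644 lower, or 56.3% higher.

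PUT4, ADH2, FDH1 and SFC1 had the largest differences toward aerobic early SP. ADH2 (YMR303C), the alcohol dehydrogenase that oxidizes ethanol, gave signals of 9335.6 and 10673.4 in aerobic early SP, against 22.8 and 35.2 in anaerobic early SP, a log2 difference of 8.46 ± 0.25 (limma adjusted p = 1.45e-12). PUT4, the high-affinity proline permease, gave 7126.5 and 5931.5 in aerobic and 14.2 and 19.4 in anaerobic early SP (8.61 ± 0.42). Both genes lay near the floor of 12 in anaerobic cells. They were chosen by the size of their difference, so the wide gap between the groups is a description. SFC1, the mitochondrial succinate-fumarate carrier, was below the floor on both anaerobic arrays and at least 224-fold higher in aerobic early SP, where it gave 2870.2 and 2511.5. FDH1, a formate dehydrogenase, was likewise at least 243-fold higher, with 2844.1 and 2997.3 in aerobic cells, although its probe set may also read the closely related FDH2.

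DAN1, ANB1, YNR014W and HUG1 had the largest differences toward anaerobic early SP. ANB1 (YJR047C), the hypoxic form of translation factor eIF5A, gave 6.7 and 66.0 in aerobic early SP, against 1810.0 and 2453.7 in anaerobic early SP (−6.23 ± 0.91; limma adjusted p = 5.79e-05). TIR4, a cell-wall mannoprotein, gave 185.6 and 223.9 in aerobic and 6298.3 and 7265.1 in anaerobic early SP (−5.05 ± 0.42). HUG1, an inhibitor of ribonucleotide reductase known from the DNA damage response, gave 17.7 and 35 in aerobic and 1229.2 and 1331.7 in anaerobic early SP (−5.68 ± 0.45). These genes were chosen by the size of this difference, so the gap between the groups is a description. DAN1, another mannoprotein, had the most negative fitted difference (−6.43 ± 2.11), but its aerobic signals of 0.6 and 359.3 were far apart, against 5156.4 and 6226.0 in anaerobic cells. Its call was lost without aerobic array 1 (−3.98, limma adjusted p = 0.23), without anaerobic array 1 (−6.57, 0.0712) and without anaerobic array 2 (−6.30, 0.0854).

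**Figure D1:**
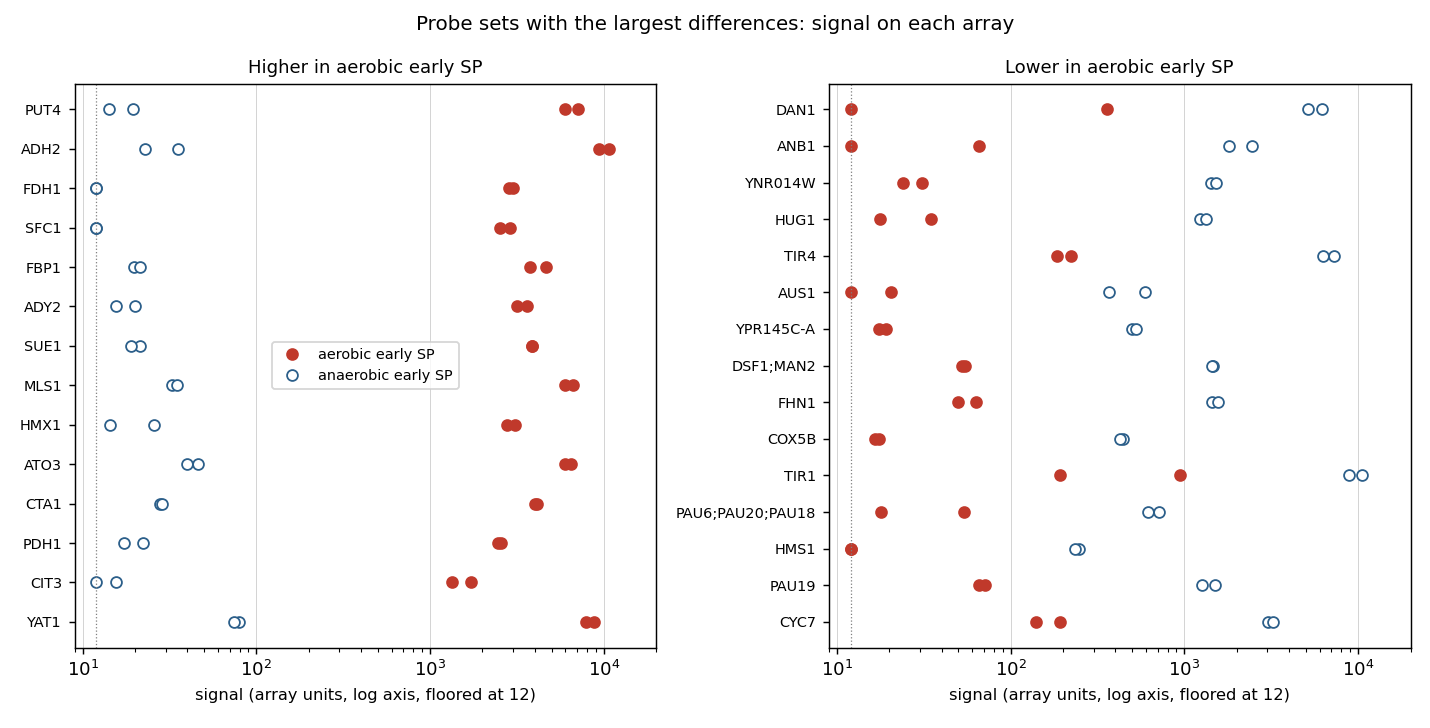
Signal on each of the 4 early SP arrays (log axis, scaled signal units, floored at 12) for the 15 probe sets with the largest called difference in each direction, filled points for aerobic and open points for anaerobic cultures, with FDH1 drawn once and AUS1 by its probe set with the largest difference. The genes were chosen by this difference, so the groups are separated at each, with ADH2 at 8.46 and TIR4 at −5.05 on the log2 scale. The 2 aerobic points of DAN1 (0.6, drawn at the floor, and 359.3) are far apart.

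All 9 listed genes of gluconeogenesis and the glyoxylate cycle were called higher in aerobic early SP, against 16.1% of all probe sets. Their median log2 difference was 5.87, against 0.21 over all probe sets. ICL1, the isocitrate lyase that opens the glyoxylate cycle, gave 8823.8 and 7820.7 in aerobic early SP, against 153.3 and 132.5 in anaerobic early SP (5.87 ± 0.25). FBP1, the fructose-bisphosphatase of gluconeogenesis, gave 3748.6 and 4621.4 in aerobic and 19.7 and 21.3 in anaerobic early SP (7.67 ± 0.17). The duplicates of each gene were close to each other in both regimes, and none of the 9 genes was called during mid-exponential growth, where the median difference was 0.1. Of 13 genes that let cells live on ethanol, acetate, lactate or glycerol, 10 were called higher and none lower (median 3.68). ACS1, the acetyl-CoA synthetase of non-fermentable growth, gave 6582.2 and 8062.2 in aerobic and 589.3 and 547.6 in anaerobic early SP (3.68 ± 0.27). JEN1, which takes up lactate and pyruvate, gave 4208.7 and 4140.9 in aerobic and 97.6 and 127.4 in anaerobic early SP. The carnitine shuttle moves acetyl groups into mitochondria, and all 6 of its genes were also called higher (median 4.06), YAT1 by 6.75 and CAT2, the main carnitine acetyltransferase, by 2.67.

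Peroxisomal fatty acid breakdown followed the same direction with a wider spread. Of 18 β-oxidation genes, 14 were called higher and none lower (median 2.71). POX1, the acyl-CoA oxidase that starts the cycle, gave 1824.0 and 1843.3 in aerobic early SP, against 21.7 and 25.2 in anaerobic early SP (6.29 ± 0.25). CTA1, the catalase that breaks down the peroxide made by this oxidase, gave 3993.5 and 4129.3 in aerobic and 27.7 and 28.8 in anaerobic early SP (7.17 ± 0.15). POT1, the thiolase of the last step, was expressed in both regimes and differed less, by 1.88 ± 0.23. Of 26 peroxins, which build peroxisomes, 11 were called higher and none lower (median 0.81), with quantile normalization 7. PEX11, which drives peroxisome proliferation, gave 2175.0 and 3137.8 in aerobic and 345.9 and 320.8 in anaerobic early SP (2.97 ± 0.21).

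Regulators of these genes did not all move with them. SIP4, an activator of gluconeogenic genes, gave 1410.0 and 1108.0 in aerobic early SP, against 37.7 and 27.6 in anaerobic early SP (5.28 ± 0.20), and ADR1, which activates ADH2 and peroxisomal genes, was higher by 1.99 ± 0.37. CAT8, the activator of SIP4 and of gluconeogenesis, gave 234.6 and 180.0 in aerobic and 254.0 and 245.1 in anaerobic early SP, a difference of −0.28 ± 0.27 that was not called (limma adjusted p = 0.419). Of 14 regulators of non-fermentable carbon use, 3 were called higher and 1 lower (21.4% and 7.14%), near the 16.1% and 9.02% of all probe sets. The lower one was HAP4, the activating subunit of the respiratory regulator Hap2/3/4/5, with 961.2 and 913.4 in aerobic and 2264.2 and 2429.9 in anaerobic early SP (−1.32 ± 0.45; limma adjusted p = 0.0247). The HAP4 groups did not overlap, as at 74.9% of all probe sets tested. Leaving out any 1 of the 4 arrays ended the HAP4 call, with differences of −1.37 to −1.27.

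**Figure D2:**
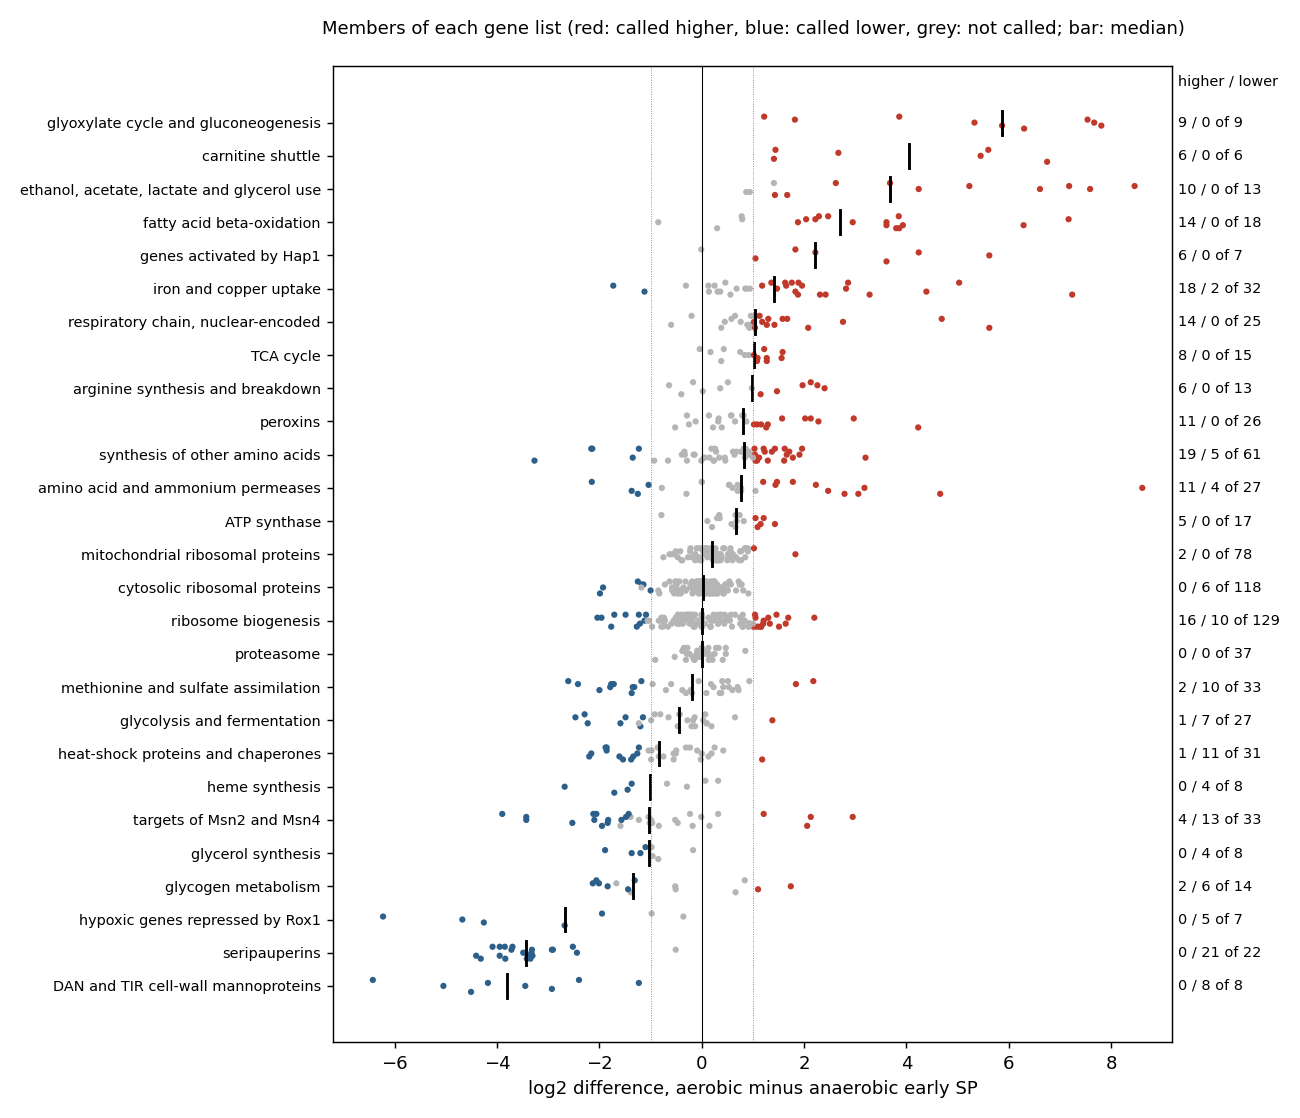
Log2 difference between aerobic and anaerobic early SP (horizontal axis) for the members of selected gene lists, 1 point per member (red for called higher, blue for called lower, grey for not called), a bar at the list's median, dotted lines at 2-fold and the counts higher and lower at the right. Gluconeogenesis and the glyoxylate cycle (median 5.87) lie at one end and the DAN and TIR mannoproteins (median −3.81) at the other, while the cytosolic ribosomal proteins (median 0.02) are centred near 0.

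Among genes controlled by oxygen through heme, those activated by Hap1 were mostly higher and those repressed by Rox1 mostly lower in aerobic early SP. Of 7 genes activated by Hap1, 6 were called higher and none lower (median 2.22). CYC1, the aerobic form of cytochrome c, gave 4433.5 and 5921.2 in aerobic early SP, against 119.0 and 91.5 in anaerobic early SP (5.62 ± 0.25; limma adjusted p = 1.56e-10). HMG1, the main HMG-CoA reductase of aerobic sterol synthesis, gave 3776.6 and 3859.8 in aerobic and 304.4 and 321.9 in anaerobic early SP (3.61 ± 0.16). Of 7 genes repressed by Rox1, 5 were called lower and none higher (median −2.68). HEM13, the heme synthesis enzyme that consumes oxygen, gave 41.8 and 48.7 in aerobic and 313.3 and 267.6 in anaerobic early SP (−2.68 ± 0.39). ROX1 itself gave 47.7 and 49.4 in aerobic and 15.2 and 12.3 in anaerobic early SP (1.83 ± 0.22), and UPC2 gave 14.6 and 14.9 in aerobic and 113.1 and 121.2 in anaerobic early SP (−2.99 ± 0.28). The call of HAP1 itself depended on the probe set: of its 3, the brightest gave 267.7 and 224.4 in aerobic and 648.7 and 616.3 in anaerobic early SP and was called (−1.37 ± 0.34), a further one was called at −1.09 ± 0.40, and the last gave 181.9 and 155.7 in aerobic and 295.6 and 286.5 in anaerobic early SP and was not called (−0.79 ± 0.21).

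Several proteins have an aerobic and a hypoxic form encoded by separate genes, and each pair was compared gene by gene. COX5A, the aerobic subunit 5 of cytochrome c oxidase, gave 2932.4 and 3147.1 in aerobic early SP, against 693.1 and 742.0 in anaerobic early SP (2.08), and COX5B, its hypoxic form, gave 17.4 and 16.5 in aerobic and 443.2 and 423.2 in anaerobic early SP (−4.68 ± 0.31). CYC7, the hypoxic cytochrome c, gave 140.4 and 191.2 in aerobic and 3043.0 and 3245.1 in anaerobic early SP (−4.26 ± 0.60), opposite in sign to CYC1. HYP2, the aerobic eIF5A, was higher by 1.26, opposite to ANB1. The ADP/ATP carriers also had opposite signs, PET9 being higher by 1.28, and AAC3, its hypoxic form, lying below the floor in aerobic cells (0.7 and 9.1) and at 42.3 and 50.6 in anaerobic cells. HMG2, the hypoxic HMG-CoA reductase, gave 438.3 and 541.8 in aerobic and 1054.2 and 878.0 in anaerobic early SP, a difference of −0.98 that stayed short of 2-fold. Of the 10 genes in these pairs, 5 were called higher and 4 lower in aerobic early SP.

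**Figure D3:**
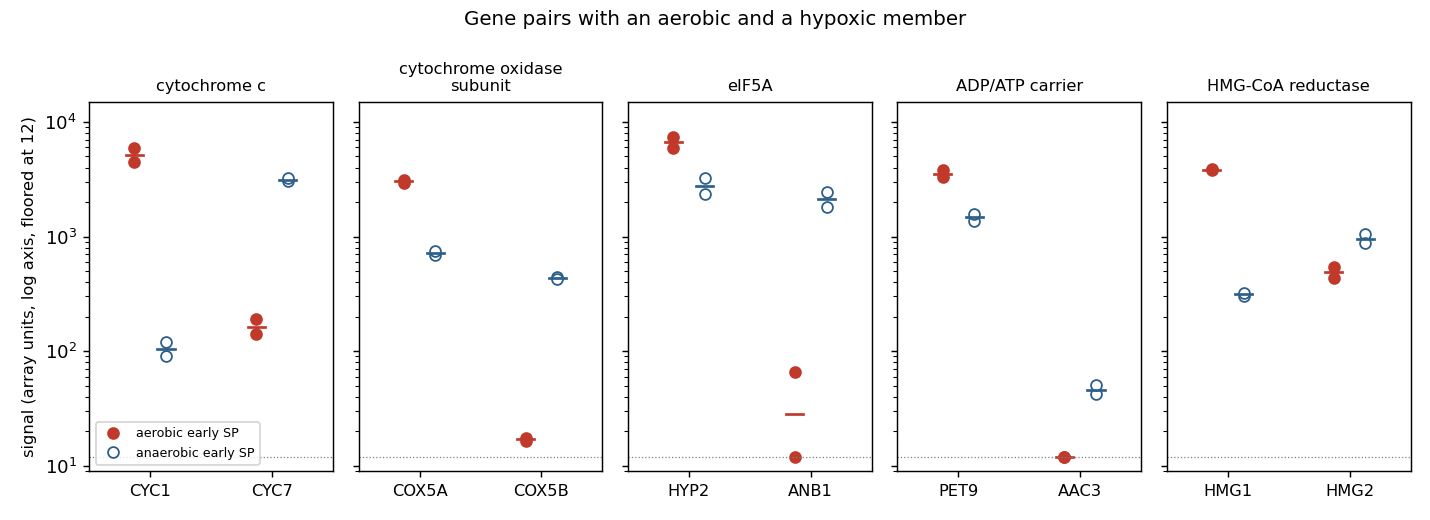
Signal on each early SP array (log axis, scaled signal units, floored at 12; short lines are geometric means) for the aerobic and hypoxic form of 5 proteins, 1 panel per pair, aerobic cultures left of anaerobic cultures in each gene. The aerobic form was higher in aerobic cultures in each pair (COX5A by 2.08, CYC1 by 5.62), and the hypoxic form was lower (COX5B −4.68, CYC7 −4.26), except that HMG2 was not called (−0.98).

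Cell-wall mannoproteins and seripauperins formed the largest block lower in aerobic early SP. All 8 DAN and TIR genes were called lower (median −3.81, against 9.02% of all probe sets called lower), as were 21 of 22 seripauperin (PAU) probe sets (median −3.44). The groups did not overlap at any member of either list, as at 74.9% of all probe sets tested. TIR1 gave 191.5 and 945.9 in aerobic and 8905.0 and 10516.0 in anaerobic early SP (−4.51 ± 1.35), and its call was lost without aerobic array 1 (−3.35, limma adjusted p = 0.131) and without anaerobic array 2 (−4.39, 0.0627). Array 2 lay above array 1 at all 8 DAN and TIR genes in aerobic and in anaerobic early SP alike. Many PAU probe sets match several members of this near-identical family, so single PAU genes are uncertain. PAU19 gave 65.3 and 71.6 in aerobic and 1256.5 and 1490.6 in anaerobic early SP (−4.32). FLO11, the adhesin of filaments and biofilms, was also lower, with 262.0 and 182.0 in aerobic and 3041.0 and 2757.8 in anaerobic early SP (−3.73 ± 0.35), whereas CWP2, a major wall mannoprotein of aerobic cells, was higher by 1.52 ± 0.23.

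The sterol importers were lower in aerobic early SP, and sterol synthesis was mixed. AUS1, a sterol importer, gave 89.4 and 88.9 in aerobic early SP, against 1585.2 and 1828.6 in anaerobic early SP (−4.26 ± 0.29), and all 6 of its probe sets were called lower. PDR11, the other importer, gave 87.2 and 75.2 in aerobic and 452.0 and 382.9 in anaerobic early SP (−2.36 ± 0.16). The sterol acyltransferases had opposite signs: ARE1 was lower (−2.47 ± 0.23) and ARE2 higher (1.23 ± 0.25). Of 24 ergosterol synthesis genes, 6 were called higher and 3 lower (median 0.08). These are 25.0% and 12.5%, beside 16.1% and 9.02% of all probe sets. IDI1, which makes an isoprenoid building block, gave 449.0 and 412.9 in aerobic and 86.8 and 98.7 in anaerobic early SP (2.22 ± 0.26), whereas ERG11, an oxygen-dependent demethylase, differed by −0.62 and ERG1, the squalene epoxidase, by 0.05, and neither was called. Heme synthesis had 4 of 8 genes lower and none higher (median −1.02).

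Respiratory genes were higher in aerobic early SP, but not across the board. Of 25 nuclear genes of the respiratory chain, 14 were called higher and none lower (median 1.04), and of 17 ATP synthase genes 5 were (median 0.66). NDE1, the external NADH dehydrogenase, gave 3500.4 and 4240.0 in aerobic early SP, against 145.7 and 152.1 in anaerobic early SP (4.69 ± 0.30). COX4, a subunit of cytochrome c oxidase, gave 2554.4 and 3080.4 in aerobic and 1343.0 and 1574.2 in anaerobic early SP, which was short of 2-fold (0.95 ± 0.20). The difference of COX4 was larger during mid-exponential growth, at 3.67. The tricarboxylic acid cycle had 8 of 15 genes higher (median 1.02), 5 when arrays were scaled to housekeeping genes and 5 without aerobic array 2. Of 32 mitochondrial carriers, 13 were higher and 3 lower (median 0.87), among them DIC1, the dicarboxylate carrier, with 2211.1 and 2571.4 in aerobic and 241.8 and 291.4 in anaerobic early SP (3.17 ± 0.22). The mitochondrial ribosomal proteins, by contrast, had 2 of 78 called, both higher (median 0.19).

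Sugar and storage metabolism leaned the other way. Of 27 glycolytic and fermentative genes, 1 was called higher and 7 lower (median −0.44), 4 of them without aerobic array 1. PGK1, phosphoglycerate kinase, gave 1325.6 and 3844.4 in aerobic and 6155.9 and 6561.8 in anaerobic early SP (−1.49), and its call was lost without aerobic array 1 (−0.73, limma adjusted p = 0.185) and without anaerobic array 2 (−1.45, 0.0533). Glycogen metabolism had 6 of 14 genes lower and 2 higher (median −1.35). GSY2, the main glycogen synthase, gave 1135.1 and 1224.9 in aerobic and 4169.7 and 4262.0 in anaerobic early SP (−1.84 ± 0.40), GDB1, the debranching enzyme, was lower (−2.01 ± 0.43), and SGA1, a glucoamylase known from sporulation, was higher by 1.74 ± 0.24. Of 8 glycerol synthesis and related genes, 4 were lower and none higher (median −1.04). Hexose transporters divided 2 higher and 3 lower of 14 (14.3% and 21.4%), beside 16.1% and 9.02% of all probe sets. HXT5, a transporter of slow-growing and starving cells, gave 4954.2 and 4805.9 in aerobic and 100.9 and 94.2 in anaerobic early SP (5.65 ± 0.14). HXT4, a transporter of growing cells, instead gave 19.8 and 47.2 in aerobic and 259.7 and 244.9 in anaerobic early SP (−3.04 ± 0.65). TKL2, the minor transketolase, was also lower (−3.43 ± 0.24).

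Of 31 heat-shock proteins and chaperones, 11 were called lower and 1 higher in aerobic early SP, and 19 were not called (median −0.84, against 0.21 over all probe sets), and with quantile normalization 15 were lower and none higher. SSA2, a cytosolic Hsp70, gave 608.2 and 744.7 in aerobic early SP, against 3192.0 and 2978.8 in anaerobic early SP (−2.20 ± 0.18; limma adjusted p = 1.34e-07). SIS1, its J-protein partner, gave 511.2 and 601.0 in aerobic and 1934.7 and 2081.8 in anaerobic early SP (−1.86 ± 0.21). HSP104, the disaggregase needed for heat tolerance, gave 595.5 and 533.0 in aerobic and 1601.0 and 1679.7 in anaerobic early SP (−1.54 ± 0.37). Not all members moved: HSP12, a membrane-stabilizing small heat-shock protein, gave 7483.8 and 9530.1 in aerobic and 8947.1 and 10978.2 in anaerobic early SP (−0.23, not called), and SSA3, the Hsp70 of starved cells, gave 452.3 and 205.0 in aerobic and 176.3 and 537.4 in anaerobic early SP (−0.02, not called).

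Other stress genes were divided. Of 33 targets of Msn2 and Msn4, 13 were called lower and 4 higher (median −1.04). ALD3, a cytosolic aldehyde dehydrogenase, gave 199.3 and 205.9 in aerobic and 2794.7 and 3290.1 in anaerobic early SP (−3.90 ± 0.30), whereas XBP1, a repressor of cyclin genes in quiescent cells, gave 412.2 and 379.8 in aerobic and 57.0 and 46.0 in anaerobic early SP (2.95 ± 0.20). CTT1, the cytosolic catalase, differed by −0.01 and was not called. Antioxidant genes had 6 of 29 lower and 2 higher (20.7% and 6.9%), beside 9.02% and 16.1% of all probe sets. TSA2, an inducible peroxiredoxin, gave 168.4 and 211.9 in aerobic and 2798.4 and 3346.2 in anaerobic early SP (−4.02 ± 0.19), while the superoxide dismutases SOD1 and SOD2 differed by −0.18 and 0.45 and were not called. Of 15 genes known from SP, 6 were higher and 2 lower (median 0.55). SPG1 and SPG4, both named for SP expression, differed by 0.55 and 0.37 and were not called, GRE1, a hydrophilin, was higher by 2.13 ± 0.19, and SIP18, its relative, gave 386.5 and 350.6 in aerobic and 2411.2 and 2753.2 in anaerobic early SP (−2.81 ± 0.20).

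Nutrient uptake and amino acid genes were called in both directions, as were all probe sets (16.1% higher and 9.02% lower). Of 27 amino acid and nitrogen permeases, 11 were called higher and 4 lower (median 0.77). GAP1, the general amino acid permease, gave 3441.4 and 3172.7 in aerobic early SP, against 415.9 and 375.7 in anaerobic early SP (3.06 ± 0.31), and MEP2, the ammonium transporter and sensor, gave 3193.0 and 3117.4 in aerobic and 137.5 and 113.2 in anaerobic early SP (4.66 ± 0.29). PHO89, the sodium-phosphate transporter, was higher by 4.15 ± 0.20, within a phosphate list of 21 genes with 7 higher and 2 lower. Iron and copper genes had 18 of 32 higher and 2 lower (median 1.42): FET3, the multicopper oxidase of high-affinity iron uptake, which needs oxygen, gave 531.8 and 377.4 in aerobic and 9.6 and 15.7 in anaerobic early SP (5.03 ± 0.23), whereas FET4, the low-affinity transporter, gave 20.5 and 30.3 in aerobic and 78.9 and 86.4 in anaerobic early SP (−1.73 ± 0.25). Arginine synthesis and breakdown had 6 of 13 genes higher and none lower, and the synthesis of other amino acids 19 higher and 5 lower of 61. GCN4, an activator of amino acid synthesis genes, gave 6399.7 and 6521.2 in aerobic and 2710.2 and 2806.7 in anaerobic early SP (1.23 ± 0.14). Methionine synthesis and sulfate assimilation ran against this, with 10 of 33 genes lower and 2 higher: MET2, which makes O-acetylhomoserine, gave 278.3 and 266.2 in aerobic and 1607.2 and 1722.4 in anaerobic early SP (−2.61 ± 0.15).

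Meiosis genes and some single cell cycle genes held further differences in these haploid cells. Of 15 meiotic regulators and early meiotic genes, 8 were called higher and none lower (median 1.09), 5 with quantile normalization. IME1, the master activator of meiosis, gave 707.2 and 836.2 in aerobic early SP, against 52.2 and 51.2 in anaerobic early SP (3.89 ± 0.16). CLN1, a G1 cyclin, gave 316.0 and 249.7 in aerobic and 55.1 and 63.3 in anaerobic early SP (2.25 ± 0.24). Of 20 cyclins and cyclin regulators 3 were higher and 3 lower, and none of 9 histone probe sets was called. INO1, the first enzyme of inositol synthesis, was higher by 3.75 ± 0.47 and PIS1, which joins inositol to phospholipid, was lower (−2.65 ± 0.18), with 306.1 and 335.8 in aerobic and 1887.3 and 2143.0 in anaerobic early SP.

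Few genes of the translation machinery were called at this stage. Of 118 cytosolic ribosomal protein probe sets, none was called higher and 6 lower (median 0.02), fewer than the 9.02% of all probe sets, and leaving out 1 of the 4 arrays gave 2 or 3 lower. RPS28B, a small-subunit protein whose levels differed between the aerobic duplicates, gave 237.0 and 504.7 in aerobic and 1462.5 and 1288.6 in anaerobic early SP (−1.99 ± 0.38). Ribosome biogenesis had 16 higher and 10 lower of 129 (12.4% and 7.75%, median 0.00), beside 16.1% and 9.02% of all probe sets. With quantile normalization it had 6 higher and 16 lower, so no direction is given for it. None of 37 proteasome genes was called, and of 37 translation factors 4 were higher (10.8%) and none lower. Relative to aerobic mid-exponential growth, the median cytosolic ribosomal protein signal stood at −2.05 in aerobic and −2.10 in anaerobic early SP on the log2 scale.

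To place early SP among the other stages, the same difference was taken at mid-exponential growth and in late SP, and the change of the difference was itself tested. Fewer probe sets were called at mid-exponential growth (308 higher and 175 lower, 5.08% and 2.88%) and more in late SP (1106 and 779, 18.2% and 12.8%). Of the 978 probe sets higher in aerobic early SP, 103 were also higher at mid-exponential growth (10.5% of the early and 33.4% of the mid-exponential calls) and 534 in late SP (54.6% and 48.3%), while 400 were called higher at early SP alone. Of the 547 lower ones, 98 were lower at mid-exponential growth (17.9% and 56.0%) and 301 in late SP (55.0% and 38.6%), and 210 at early SP alone. The counts of calls at early SP alone do not show that the difference changed between stages. By the test of the change, the difference was more positive at early SP than during growth at 961 of all probe sets (15.8%) and more negative at 510 (8.41%), and 50.1% of such changes were positive with quantile normalization, against 65.3% as deposited. Against late SP, 682 of all probe sets (11.2%) were more positive and 490 (8.08%) more negative at early SP. Without aerobic late SP array 1 the count more positive was 433.

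**Figure D4:**
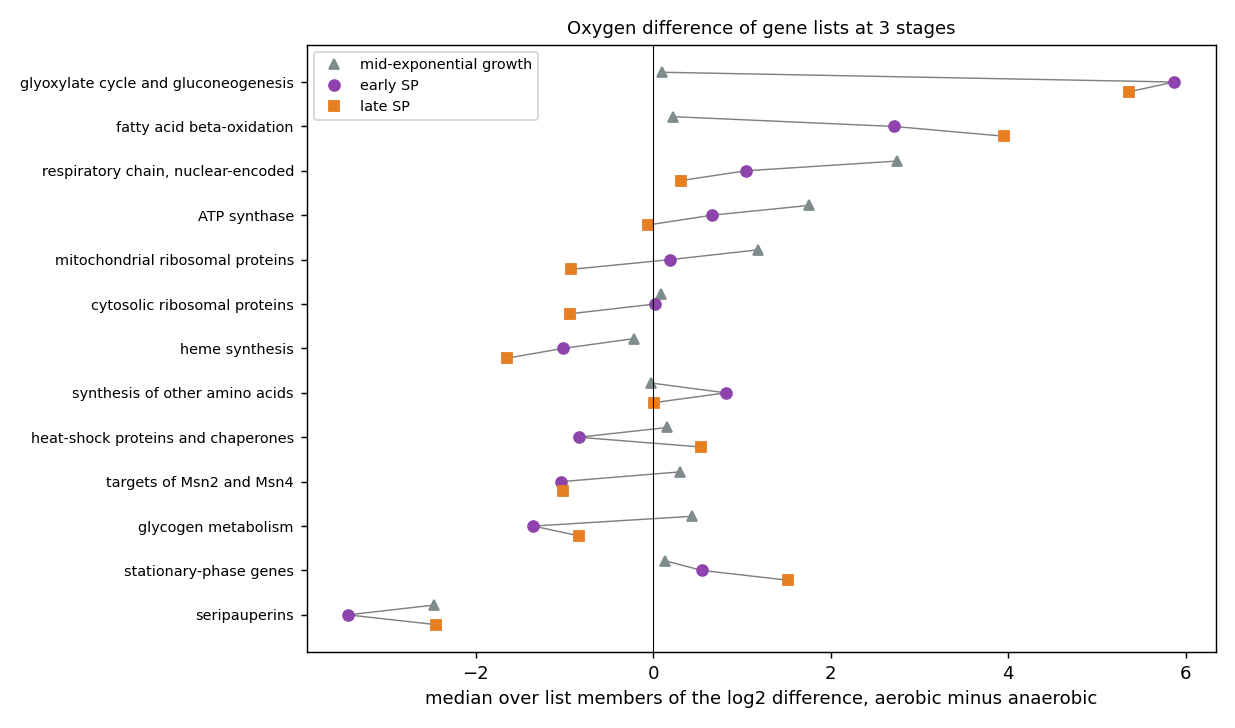
Median log2 difference between aerobic and anaerobic cultures (horizontal axis) for selected gene lists at mid-exponential growth (triangles), early SP (circles) and late SP (squares), 1 row per list. Gluconeogenesis and the glyoxylate cycle had 0.1, 5.87 and 5.36 at the 3 stages, the mitochondrial ribosomal proteins had 1.18, 0.19 and −0.93, and heat-shock proteins and chaperones were lowest at early SP (−0.84), with 0.54 in late SP.

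Changes of the difference between early and late SP are given for some of the gene lists. Of all probe sets, 11.2% were more positive and 8.08% more negative at early SP, and the list counts stand beside these shares. Among others, 9 of 22 seripauperins were more negative at early SP, a count that depended on single arrays and was lowest without aerobic late SP array 2. In mitochondrial import, 11 of 28 genes were more positive. The ACT1 3′/5′ ratio, a measure of RNA quality, was highest on the aerobic late SP arrays, at 2.68 and 2.10. It was 1.77 and 1.87 in aerobic early SP and 1.55 to 1.69 on the 4 anaerobic SP arrays. Only aerobic late SP array 1 stood apart, since the aerobic diauxic shift arrays had 2.03 and 1.94. The array control CreX (3′ end) also read 10730.3 on aerobic late SP array 1. It read 6699.4 on array 2 of that group, 6546.7 on aerobic late exponential array 2, and 5482.5 and 5420.1 in aerobic early SP. The part of RNA quality or of array scaling in these changes was not tested. In heat-shock proteins and chaperones the difference was below that of late SP in 29 of 31 genes (median change −1.36, against 0.08 over all probe sets). Of the 31, 16 were called more negative at early SP, a count that moved little with 1 array left out. SIS1 differed by −1.86 in early and by 1.37 in late SP (−3.22; limma adjusted p = 6.41e-06), its late SP signals being 5321.4 and 3991.8 in aerobic and 1685.1 and 1892.0 in anaerobic cells. SSA3 differed by −0.02 in early and by 3.56 in late SP (−3.57), with late SP signals of 6252.6 and 6639.8 in aerobic and 552.0 and 541.5 in anaerobic cells. In both genes the aerobic signals of late SP lay far above those of early SP, and for SIS1 the anaerobic signals of the 2 stages were close, whereas SSA3 anaerobic early SP array 1 (176.3) lay below the other 3 anaerobic SP arrays. The cytosolic ribosomal proteins had 39 of 118 probe sets more positive at early SP, but this count rested on single arrays: it was 7 without aerobic late SP array 1, 77 without aerobic late SP array 2, 13 without aerobic early SP array 2 and 17 to 20 without 1 anaerobic early or late SP array. The mitochondrial ribosomal proteins had 39 of 78 more positive at early SP, 23 without aerobic late SP array 1, with 57 called higher at mid-exponential growth and 38 lower in late SP. SPG1 and SPG4 had larger differences in late SP (1.90 and 1.52), and β-oxidation had 7 genes with larger differences in late SP (5 to 9 with 1 array left out), POX1 reaching 7.85. CYC1 (5.62 in early and 3.94 in late SP), IME1 (3.89 and 2.23) and CLN1 (2.25 and 0.01) had the opposite order, each by the test of the change.

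Set against growing cells, the difference of respiratory chain genes was smaller in early SP, as it was in related mitochondrial lists. Of 25 respiratory chain genes 23 were called higher at mid-exponential growth (median 2.75), against 14 at early SP (median 1.04). By the test of the change, 15 were more negative and 2 more positive at early SP, beside 8.41% and 15.8% of all probe sets. More negative too were 19 of 34 genes for assembly of respiratory complexes, 9 of 17 ATP synthase genes and 33 of 78 mitochondrial ribosomal proteins. These list counts were not rerun with arrays left out. The aerobic mid-exponential duplicates they rest on were the least alike of the 10 groups, with 534 probe sets at least 2-fold apart. HAP4 had 742.8 and 219.4 in aerobic and 37.3 and 45.8 in anaerobic mid-exponential cells (3.29), opposite to its sign in early SP. The median respiratory chain signal was 1.09 in aerobic and 0.18 in anaerobic early SP relative to aerobic mid-exponential cells, where the anaerobic mid-exponential median was −2.75. All 8 DAN and TIR genes and 21 of 22 seripauperin probe sets were already lower in aerobic mid-exponential cells (medians −4.41 and −2.47).

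**Figure D5:**
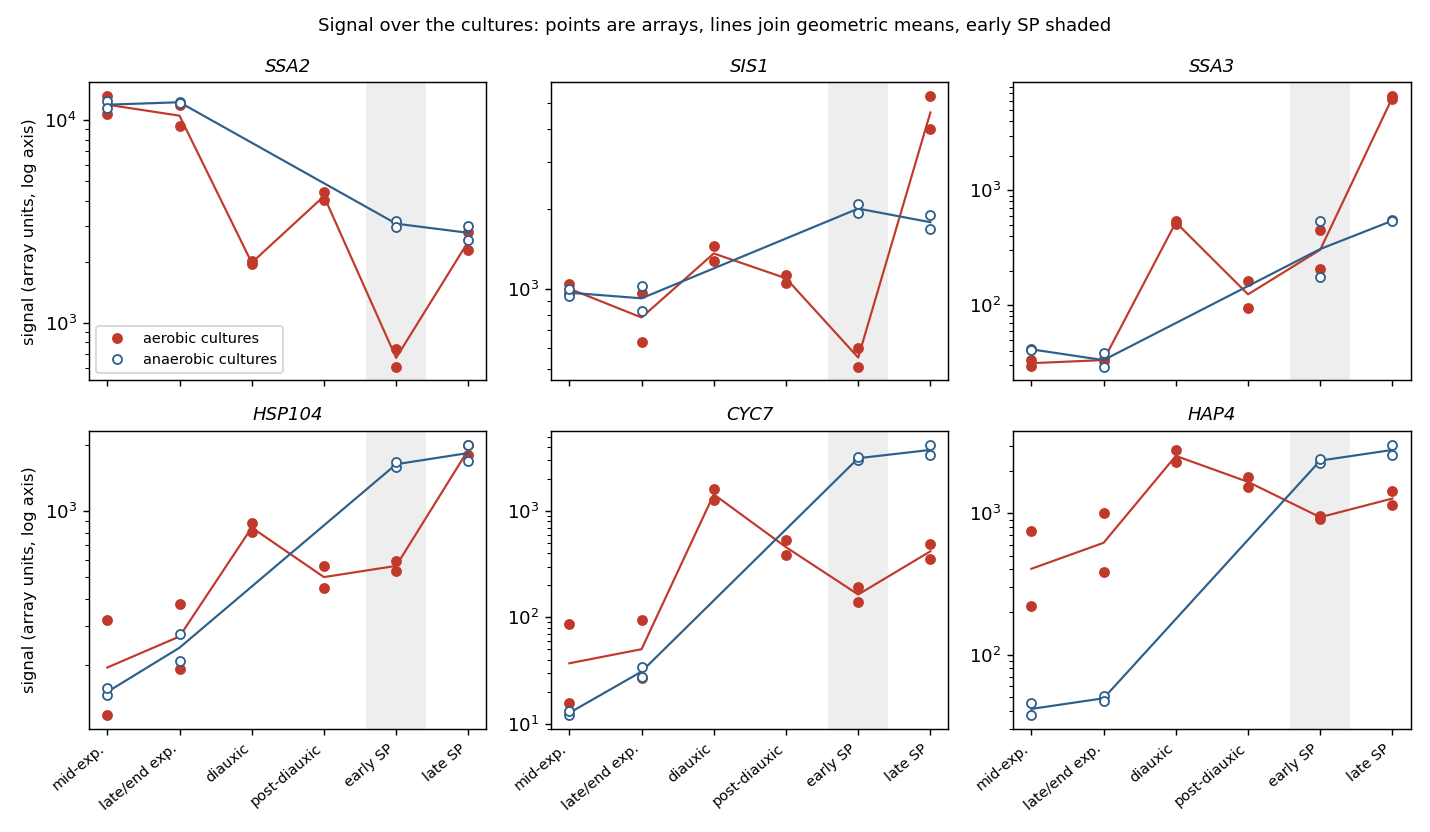
Signals (log axis, scaled signal units) of SSA2, SIS1, SSA3, HSP104, CYC7 and HAP4 over the stages of aerobic (filled) and anaerobic (open) cultures, points being arrays and lines joining geometric means, with early SP shaded and no anaerobic sample between the end of exponential growth and early SP. SSA2 and SIS1 were lowest in aerobic early SP of all stages sampled (608.2 and 744.7 for SSA2), and HAP4 had 961.2 and 913.4 in aerobic and 2264.2 and 2429.9 in anaerobic early SP.

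Over the whole course, chaperones and Msn2 and Msn4 targets took the following courses. Relative to aerobic mid-exponential growth, the median of heat-shock proteins and chaperones was 0.27 in aerobic and 1.03 in anaerobic early SP, and 2.2 in aerobic and 1.19 in anaerobic late SP. The median of the Msn2 and Msn4 targets was 3.59 in aerobic and 4.46 in anaerobic early SP. For the 978 probe sets higher in aerobic early SP, the median, on the same scale, was 0.02 at late exponential growth, 0.37 at the diauxic shift, 0.54 in the post-diauxic phase, 0.80 in early SP and 0.25 in late SP of aerobic cultures. In anaerobic cultures it was −0.04 at mid-exponential growth, −0.17 at the end of exponential growth, −0.73 in early SP and −0.93 in late SP. The probe sets lower in aerobic early SP had a median of 0.00 in aerobic early SP and of 1.64 in anaerobic early SP. The early SP values chose these probe sets, so the values at that stage are a description. The glyoxylate and gluconeogenesis list had its median at 6.47 already at the aerobic diauxic shift, at 6.12 in the post-diauxic phase and at 6.62 in aerobic early SP, against 0.67 in anaerobic early SP.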

How the data were processed

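RNA of 20 batch culture samples was hybridized by the authors to Affymetrix YG-S98 arrays, and the deposited intensity values are linear signals scaled by the authors to a target of 240 per array. The summary algorithm is not given in the sources used here. Signals below 12 were set to 12, and protein-coding features with a highest signal of at least 20 were kept, as in the authors' methods. This left 6067 of 6647 probe sets (293 match several genes, and 2503 of 9335 features are not listed in the annotation) and 5266 genes, each counted by the probe set with the highest mean log2 signal. Of 261 genes with several probe sets, 87 had differing calls and 2 opposite ones.

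A model of 10 group means on log2 signals was fitted by limma (version 3.58.1, R 4.3.3) over 20 arrays, which gave 10 residual and 4.732 prior degrees of freedom, with Benjamini-Hochberg adjustment over all 6067 probe sets. A fold against a group below the floor on both arrays is a lower bound taken against 12. Duplicates are independent cultures by the study's methods. Between the regimes a shared culture number pairs nothing, and deviations of same-numbered early SP arrays had a correlation of 0.031. The procedure was tested on simulated data. Figures were drawn with Python 3.11.15, pandas 2.3.3 and matplotlib 3.10.9.

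The arrays of each group follow from their titles, but which comparison to describe and the 64 gene lists were chosen with earlier results of these data known, so lists are described by counts and medians with no test of the list. Named genes are the 15 called probe sets per direction with the largest difference, the key genes and the 5 largest differences of each list, and the 10 largest changes of the difference per direction against late SP and against mid-exponential growth. Alternatives were the floor, the filter, the scaling, the arrays in the fit, a culture block, the fold threshold and leaving out each array. Leaving out each of the 16 arrays not compared, the 4 aerobic exponential arrays together, and each array for the change from late SP in 6 lists, was added after the data were seen. The number of arrays and signal over background limit the precision, and between 2279 and 2526 features lay below 12 on the 4 arrays.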

Additional observations from a re-analysis of the deposited data

Results flagged for a closer look

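The difference between aerobic and anaerobic cultures itself changed between stages at many probe sets, by limma's test of the difference of differences. With 2 arrays per group, single arrays were not tested for lying apart. Against late SP, 682 probe sets were more positive (433 without aerobic late SP array 1) and 490 more negative at early SP.

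The most positive changes against late SP, on the log2 scale, were those of a probe set of RPS22B (4.06), RBG1 (3.49), DAL3 (3.14) and BIO5 (2.93). Next came a probe set of YHB1 (2.84), MIX23 (2.65), YDR222W (2.53), PET117 (2.48), a probe set shared by RPS16A and RPS16B (2.47) and DPH5 (2.32). The RPS22B probe set gave 0.8 and 22.5 in aerobic late SP, and its early SP difference of 0.21 was not called. The most negative ones were those of PEX9 (−5.52), a peroxisomal import receptor for malate synthase, CUR1 (−4.38), a sorting factor for misfolded proteins, NKP1 (−4.27), RTS3 (−3.95), REC104 (−3.93), ROQ1 (−3.91), HRP1 (−3.91), ARO10 (−3.61), NRD1 (−3.58) and SSA3 (−3.57). HRP1 and NRD1 encode RNA-binding proteins that act in 3′ end formation and transcription termination. In late SP, PEX9 gave 630.3 and 580.8 in aerobic and 7.8 and 8.1 in anaerobic cells, and HRP1 gave 5212.5 and 4519.5 in aerobic and 777.4 and 766.4 in anaerobic cells.

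Against mid-exponential growth, 961 probe sets were more positive and 510 more negative at early SP. The most positive changes were those of ATO3 (8.55), ADH2 (8.26), 2 probe sets of FDH1 (7.93 and 7.05), SFC1 (7.81), FBP1 (7.67), ADY2 (7.59), MLS1 (7.54), CTA1 (7.13) and CIT3 (6.78). The most negative ones were those of YNR014W (−6.59), CYC7 (−5.81), a probe set shared by HXT13, HXT17, HXT16 and HXT15 (−5.17), a probe set shared by DSF1 and MAN2 (−4.68), EEB1 (−4.66), HAP4 (−4.61), MTH1 (−4.59), YJR115W (−4.47), GID10 (−4.19) and YLR108C (−4.16). Aerobic mid-exponential duplicates were the least alike of the 10 groups, with 534 probe sets (8.8%) at least 2-fold apart.

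Features outside protein-coding genes also differed. Of 1408 such features tested apart, 122 were called higher and 196 lower in aerobic early SP, most of them features that the annotation does not list (117 higher and 179 lower of 1261).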

How the results depend on the processing

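None of the 277 called named genes changed sign under any alternative run for it, which was not checked for the other probe sets. Of 14334 combinations of the 422 named genes with an alternative, 149 lost and 160 gained a call. Genes named only for a change of the difference between stages are not among these 422. Without the fold threshold, 1848 probe sets (1726 genes) were higher and 903 (701 genes) lower in aerobic early SP. Leaving out each of the 4 arrays compared gave 936 to 1086 higher and 496 to 554 lower probe sets, and 43 of 277 called genes lost their call without 1 of them. The count more positive at early than at late SP was 433 to 803 over arrays left out, with 433 without aerobic late SP array 1, and the count more negative was 376 to 537. Against mid-exponential growth these counts were 802 to 999 and 402 to 729. With quantile normalization they were split 50.1% more positive, against 65.3% as deposited, and 11 named genes lost their call, against 8 with housekeeping scaling and 15 with a floor of 30.

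With the culture number as a replicate block, 978 probe sets were higher and 550 lower, and with the culture as a random block 978 and 547. With 4 cultures as a block, 672 were more positive and 487 more negative than in late SP, and 958 and 504 than at mid-exponential growth. Signals near the floor limit the size of large differences: 42 higher and 27 lower called probe sets have only a lower bound.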
